A study of Sus scrofa with 12 samples.

Results

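The comparison of a high-fiber (HF) with a low-fiber (LF) diet was made here in the presence of N-carbamylglutamate (NCG), as the 3 H + N libraries against the 3 L + N libraries of sow endometrium, 6 of the 12 libraries in the series. Members were taken by the diet code and number in their titles, and every gene of the table was described together with its pathway and biological process annotation. H + N sows ate 7.46% crude fiber and L + N sows 3.73%, and both diets held 0.05% NCG from breeding over 114 days of gestation. The remaining libraries, H − N (7.46% crude fiber) and L − N (3.73%), had no NCG and are used below for the same dietary fiber (DF) contrast without it. The sows were Landrace x Yorkshire crosses, and the extra fiber came from soybean bran and beet pulp in place of part of the corn. The HF diets also held soybean oil, which the LF diets did not, so HF stands for that mixture of feeds. The labels number the libraries but tie them to no sow, so the p-values measure the spread between these samples, which may be technical in part.

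NCG is an analog of N-acetylglutamate, the cofactor that switches on carbamoyl phosphate synthetase and with it the synthesis of citrulline and arginine. Fermentable fiber is turned by gut bacteria into short-chain fatty acids that reach the circulation. The endometrium lines the uterus with a luminal and glandular epithelium over a vascular stroma, and its glands secrete the proteins that feed and protect the conceptus until the end of pregnancy.

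The 6 libraries held 14701681 to 19309724 counted reads, and their 10 most abundant genes took 6.86% to 9.09% of them. Estrogen receptor ESR1 (47.7 to 71.3 FPKM), the epithelial keratin KRT18 (51.9 to 62.6 FPKM), stromal VIM (398 to 658 FPKM), the gland factor FOXA2 (5.62 to 14.2 FPKM) and uteroferrin, ACP5 (32.9 to 74.2 FPKM) were found in all 6. H + N replicate 3 stood apart. On the first principal component of log2 CPM (counts scaled to a fixed library total), which held 36.6% of the variance, it lay at −59.6 and the other 5 libraries lay between −7.9 and 26.8. Correlations of log2 CPM were 0.973 to 0.977 within L + N, 0.956 to 0.969 within H + N and 0.954 to 0.977 between the groups, so that some libraries of different diets were as alike as those of one diet. Differences between the 2 group means took 23.5% of the sum of squares, against 36.9% for H − N and L − N. With so few libraries a good part of such a share arises without any effect of diet, and the shares were not tested.

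No gene passed the test between H + N and L + N. Of the 15351 genes tested, 0 passed edgeR's quasi-likelihood test (percent called 0) at an adjusted p under 0.05 with an absolute log2 fold change above 1, and 0 passed the adjusted p alone, the smallest of which was 0.91. At an unadjusted p under 0.05 there were 719 genes (4.68%), 462 higher in H + N (3.01%) and 257 lower (1.67%). The count at that p depended on single libraries. Leaving out replicate 3 of H + N gave 307, and leaving out its replicate 2 gave 1479. In the L + N group it fell to 334 if replicate 1 was dropped and to 454 if replicate 2 was, and 0 genes were called in each case. DESeq2 called 2 genes in the 12 libraries, PTX3 and GPC2, and 20 when it was given the 6 libraries alone, 1 higher and 19 lower, with 908 and 903 genes at an unadjusted p under 0.05. The 3 libraries of H + N all lay above or all below those of L + N for 900 genes (5.86%) and 781 genes (5.09%). Some genes separate in this way without any difference between groups, and these shares were not tested.

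For most genes a large difference lay outside the interval. The median absolute log2 fold change was 0.17 and the median of all log2 fold changes was 0.0055. The 95% interval reached 0.485 to either side of the fold change in the median gene. For 10828 genes (70.5%) the whole interval lay between −1 and 1, so a doubling or halving of the mean was outside it. The intervals of the other genes reached past −1 or 1, through their width or through the size of the fold change. The values of single genes that follow are descriptions, not differences that passed the test.

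The smallest p belonged to GPC2, a membrane heparan sulfate proteoglycan (chromosome 3, 8169229 to 8175848 on Sscrofa11.1, minus strand). Its CPM was 3.23, 3.26 and 2.45 in H + N and 7.13, 6.58 and 8.37 in L + N. The groups did not overlap, and the log2 fold change was −1.30 (95% interval −1.83 to −0.77, unadjusted p of 0.000198 by edgeR's quasi-likelihood test). GPC2 overlaps LAMTOR4 on the opposite strand, and whether the counting used the strand is not given in the sources used here. H − N and L − N lay at means of 3.45 and 5.46 CPM, also without overlap.

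EDN1 encodes endothelin-1, a vasoconstrictor peptide of endothelium and uterine epithelium (chromosome 7, 8752018 to 8758354, plus strand). It was measured at 13.2, 12.2 and 11.7 CPM in H + N and at 18.2, 26 and 17.1 CPM in L + N. Every H + N library lay below every L + N library, with a log2 fold change of −0.72 (−1.07 to −0.38) and an adjusted p of 0.91. Without NCG, EDN1 had 21.6 to 23.2 CPM in H − N and 40.5 to 42.5 CPM in L − N, a log2 fold change of −0.89.

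PTX3, a soluble pattern recognition protein of the pentraxin family that is also part of the hyaluronan matrix, led the genes with higher values in H + N (chromosome 13, 97273594 to 97279570, plus strand, overlapping VEPH1 on the other strand). The H + N libraries held 20.7, 6.84 and 54.6 CPM, and the L + N libraries 3.79, 3.49 and 3.86. L + N was even and H + N was not, and the log2 fold change of 2.88 had an interval of 1.36 to 4.40 and was 1.89 without H + N replicate 3. WRB, a receptor for the insertion of tail-anchored membrane proteins, differed by less but with little spread, at 38.2, 38.2 and 49.2 CPM against 27.7, 31.9 and 29.2 (log2 fold change 0.50, 0.23 to 0.78). FZD1, a Wnt receptor, stood at 101, 118 and 145 CPM against 58.8, 74.5 and 72.2, again without overlap (0.83, 0.33 to 1.33). FLT1, the VEGF receptor 1, had 77.5, 79.0 and 123 CPM against 54.8, 59.8 and 65.7 (0.63, 0.24 to 1.03).

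**Figure D1:**
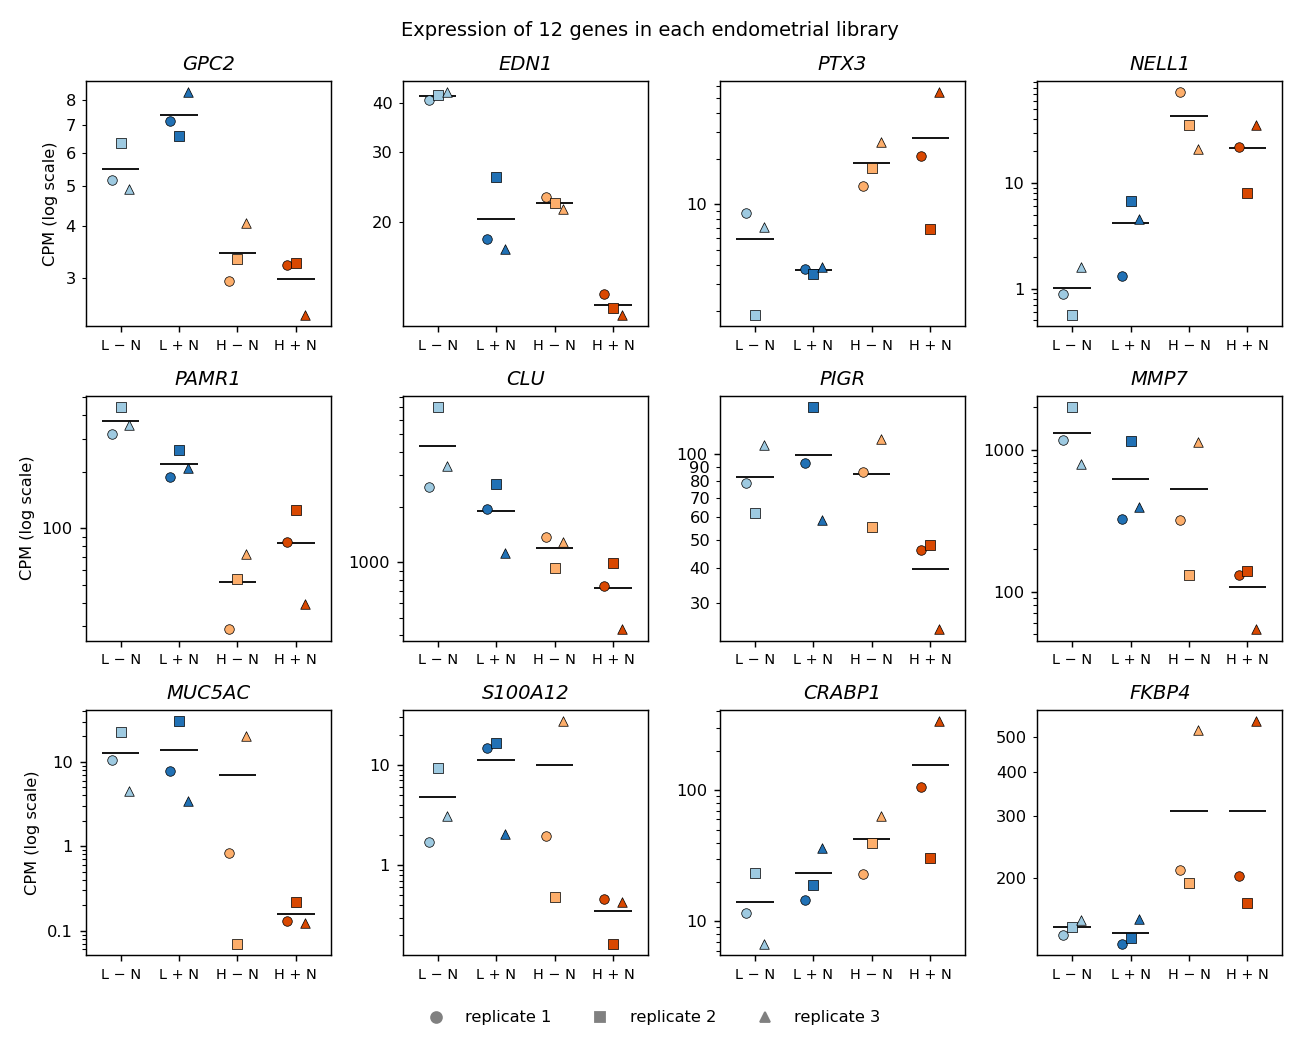
CPM on a log scale of 12 genes in each of the 12 libraries, by group, with a marker shape for the replicate number and a bar at the group mean. H + N lies wholly below L + N for GPC2, EDN1, PAMR1, CLU, PIGR, MMP7, MUC5AC and S100A12 and wholly above it for PTX3, NELL1 and FKBP4, and H + N replicate 3 is the highest library for CRABP1 (336 CPM) and FKBP4 (555 CPM).

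Among the 12 genes named as higher by p and lack of overlap, NELL1 is a secreted protein of the extracellular matrix with a role in skeletal growth (chromosome 2, 37809080 to 38754520, minus strand). Its H + N libraries held 21.8, 8.04 and 35.0 CPM and its L + N libraries 1.31, 6.70 and 4.51. Replicate 2 of H + N lay just above the highest L + N library, and the log2 fold change was 2.38 (0.90 to 3.86). ADD2, a subunit of the membrane skeleton protein adducin, had 15.6, 10 and 24.5 CPM against 4.08, 4.77 and 8.37 (1.54, 0.54 to 2.55). LRRN3, a leucine-rich repeat membrane protein that overlaps IMMP2L, had 5.01, 5.32 and 6.01 CPM against 1.6, 2.50 and 3.86 (1.04, 0.30 to 1.78). For the adaptor EDARADD the highest library was replicate 2, with 0.791, 3.64 and 1.72 CPM against 0.388, 0.699 and 0.0654 (2.38, 0.84 to 3.93).

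The other genes of this list lay far higher in H + N replicate 3 than in the other H + N libraries. GADD45G, a stress-inducible growth regulator, stood at 12.9, 13.5 and 104 CPM against 9.07, 9.61 and 12.6 in L + N. Its log2 fold change was 2.06 with all libraries and 0.34 without H + N replicate 3. SPRY4, an inhibitor of receptor tyrosine kinase signaling, had 19, 17.9 and 72.0 CPM against 12.7, 11.5 and 15.2, and its log2 fold change of 1.47 was 0.49 without that library. The matrix protease ADAMTS4 (1.82, and 0.81 without it), the serine protease PRSS23 (1.30 and 0.70), the potassium channel KCNA6 (1.56 and 0.66) and the secreted CRISPLD2 (1.03 and 0.45) did likewise.

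CRABP1, a cytosolic carrier of retinoic acid, was outside this list because its groups overlapped. It had 106, 30.3 and 336 CPM in H + N and 14.7, 18.9 and 36.4 in L + N (2.76, 1.05 to 4.47, and 1.55 without H + N replicate 3). FKBP4, the immunophilin that helps the progesterone receptor to fold, stood at 202, 170 and 555 CPM against 130, 135 and 153. Its log2 fold change was 1.15 (0.17 to 2.13), and 0.42 without H + N replicate 3. PGR itself, the progesterone receptor, had 59.3, 43.6 and 119 CPM against 40.4, 34.2 and 57.9 (0.74, 0.04 to 1.45, and 0.22 without that library). IGF1, named after its values were seen, was measured at 91.0, 26.6 and 520 CPM against 40.7, 28.1 and 36.8, so that H + N and L + N overlapped and replicate 3 was above all others.

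Genes with lower values in H + N included secreted and surface proteins of epithelium. CLU, the chaperone and complement inhibitor clusterin and the most abundant of them (chromosome 14, 11336585 to 11352569, minus strand), stood at 748, 986 and 431 CPM in H + N and at 1960, 2660 and 1120 CPM in L + N. The log2 fold change was −1.41 (−2.35 to −0.46), and the groups did not overlap. PIGR, the receptor that carries IgA across epithelium (chromosome 9, 67553094 to 67574698, minus strand), had 46.2, 48.0 and 24.3 CPM against 93.0, 146 and 58.7 (−1.33, −2.16 to −0.50). MMP7, an epithelial matrix protease that also activates defensins, had 131, 140 and 54.0 CPM against 327, 1150 and 392 (−2.52, −4.20 to −0.84).

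The gel-forming mucin MUC5AC (chromosome 2, 757897 to 790321, plus strand) was nearly absent from H + N, with 0.132, 0.217 and 0.123 CPM. It had 7.86, 30.2 and 3.40 CPM in L + N, the lowest of which was far above H + N. Its log2 fold change of −6.37 had an interval from −10.24 to −2.50, and in H − N the libraries ran from 0.0694 to 20.3 CPM. S100A12, a calcium-binding alarmin of neutrophils, showed the same picture with 0.461, 0.163 and 0.429 CPM against 14.7, 16.5 and 2.03 (−4.98, −8.18 to −1.77). The beta-defensin DEFB128 had 0.461, 0.163 and 0.184 CPM against 1.16, 2.91 and 1.11 (−2.67, −4.34 to −1.01). SERPINB2, a plasminogen activator inhibitor, had at most 0.264 CPM in H + N and at least 0.785 CPM in L + N.

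The other genes named as lower had various roles. PAMR1, a secreted serine protease homolog (chromosome 2, 25422390 to 25591615, plus strand, overlapping FJX1), had 84.0, 125 and 39.6 CPM in H + N and 187, 260 and 208 CPM in L + N. Its libraries did not overlap, with a log2 fold change of −1.40 (−2.25 to −0.54). CTHRC1, a secreted protein that restrains collagen deposition, stood at 1.91, 3.31 and 1.84 CPM against 5.34, 5.65 and 4.45 (−1.12, −1.96 to −0.28). RSPO1, an R-spondin that amplifies Wnt signaling, had 3.82, 2.50 and 3.92 CPM against 6.26, 7.39 and 9.55 (−1.18, −1.89 to −0.47). SHH, the hedgehog ligand, was low throughout, at 0.0613 to 0.272 CPM against 0.589 to 0.932. RHOV, a small GTPase, had 3.20 to 3.99 CPM against 7.91 to 8.24, the cadherin FAT2 2.28 to 3.37 CPM against 4.60 to 6.45, the myosin MYO3B 0.736 to 2.28 CPM against 4.61 to 9.48, and the ciliary RPGRIP1 0.490 to 1.65 CPM against 2.42 to 5.01. HOXD3, a homeobox factor (−0.69), and SARM1, an NAD-cleaving enzyme (−0.61), lay lower in H + N by less, without overlap.

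**Figure D2:**
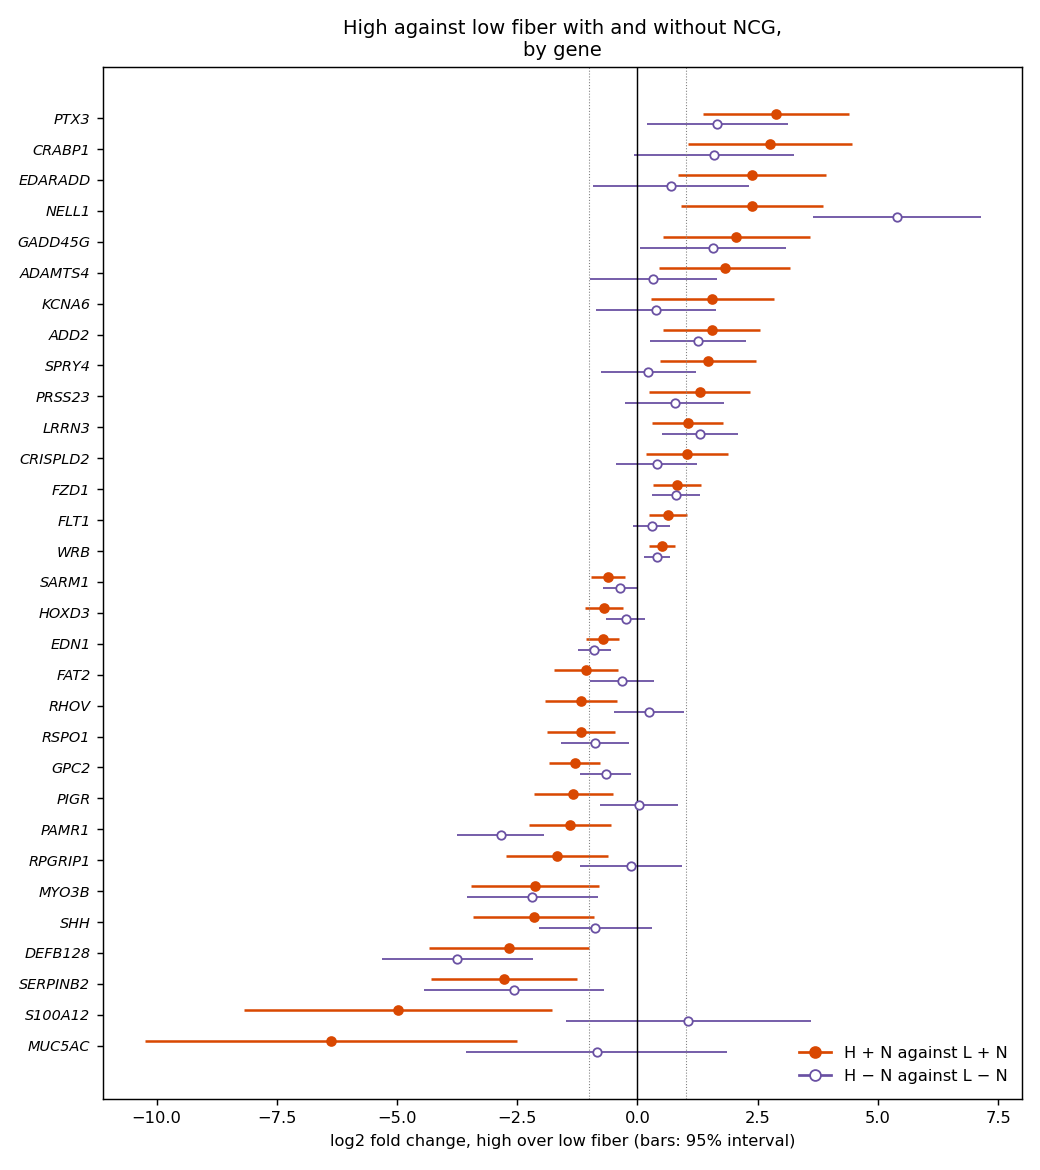
Log2 fold change of high over low fiber with its 95% interval for genes named by their p, in H + N against L + N (filled) and in H − N against L − N (open), with dotted lines at −1 and 1. With NCG the intervals of these genes leave out 0, as their choice by p requires, and MUC5AC has the widest, from −10.24 to −2.50.

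AHSP, the chaperone of alpha-globin, had 0.330, 0.652 and 0.613 CPM in H + N and 0, 0 and 0.0654 CPM in L + N, where no library held more than 3 counts, and no fold is given. The erythroid markers together summed to 39.3, 305 and 225 CPM in H + N and to 37.0, 64.6 and 91.8 CPM in L + N, with 88.4% of the sum from HBB. Of 5 tested, 4 had positive fold changes and AHSP alone had an unadjusted p under 0.05. Their part in the value of AHSP was not tested.

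The 20 genes of DESeq2 in the 6 libraries included 7 already described (GPC2, CLU, MUC5AC, PAMR1, MYO3B, RHOV and S100A12), all lower in H + N. Of the other lower genes 5 are given here, chosen after their values were seen. WFDC2, an antiproteinase of mucosal secretions, had 15.8, 8.75 and 13.9 CPM against 28.9, 48.6 and 32.8. LCN2, the siderophore-binding lipocalin, had 51.2, 27.9 and 40.6 CPM against 125, 178 and 58.6. CFTR, the epithelial chloride channel, had 36.8, 31.8 and 38.1 CPM against 81.6, 111 and 54.3. KERA, the proteoglycan keratocan, had 27.2, 14.1 and 20.5 CPM against 66.1, 125 and 43.2, and S100A9, the partner of S100A8 in calprotectin, at most 0.368 CPM against 0.719 to 9.96. The groups did not overlap for these 5 genes, while edgeR, with its spread taken from all 12 libraries, gave them log2 fold changes of −1.52, −1.59, −1.21, −1.93 and −4.60 with unadjusted p-values of 0.0249 to 0.096. Given the 6 libraries alone, edgeR also called 0 genes.

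The list of neutrophil markers holds LCN2, S100A9 and S100A12, so its values partly repeat those of the genes above. Of its 10 tested members 7 had negative fold changes and 3, S100A8, S100A9 and S100A12, had an unadjusted p under 0.05 and lower values in H + N. The median log2 fold change was −1.75, and −0.73 without L + N replicate 1. S100A8 and the receptors CSF3R and CXCR2 had their highest values in L + N replicate 1 or 2, and MPO was not tested because of low counts. The summed list ran from 200 to 220 CPM in H + N and was 399, 381 and 196 CPM in L + N, so that L + N replicate 3 lay below H + N, with 55.7% of the sum from FCGR3A. The part of neutrophils in the values of S100A12 and LCN2 was not tested, and in bulk tissue fewer cells of a type and less RNA per cell cannot be told apart. Markers of luminal and glandular epithelium summed to 1450 to 1680 CPM in H + N and 1760 to 1870 CPM in L + N, so the groups did not overlap. Of 13 markers 10 had negative fold changes, with a median of −0.14, and KRT19 alone had an unadjusted p under 0.05 (−0.52).

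Smooth muscle markers had positive fold changes for 12 of 12 genes, with a median log2 fold change of 0.41 and sums of 2010 to 2020 CPM against 1410 to 1680. None of them had an unadjusted p under 0.05. Endothelial markers had 11 of 12 positive fold changes (median 0.19, sums of 1300 to 1580 CPM against 1060 to 1290). Mast cell markers had 5 of 5 (0.22, 419 to 538 CPM against 303 to 385), but only 5 of the 9 listed were tested. The mast cell protease CPA3 was at 0 in all 6 libraries, and KIT gave 44.2% of the sum. Stromal fibroblasts (30800 to 53600 CPM against 25100 to 42400), ciliated epithelium (298 to 689 against 330 to 444), macrophages (1200 to 1530 against 1260 to 1800), T and NK cells (165 to 261 against 131 to 228) and B and plasma cells (393 to 770 against 439 to 800) overlapped between the groups. Of the trophoblast list PAG6, CYP19A1, CDX2 and HAND1 were at 0 in all 6 libraries, and DAB2 alone gave 78.7% of its sum.

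**Figure D3:**
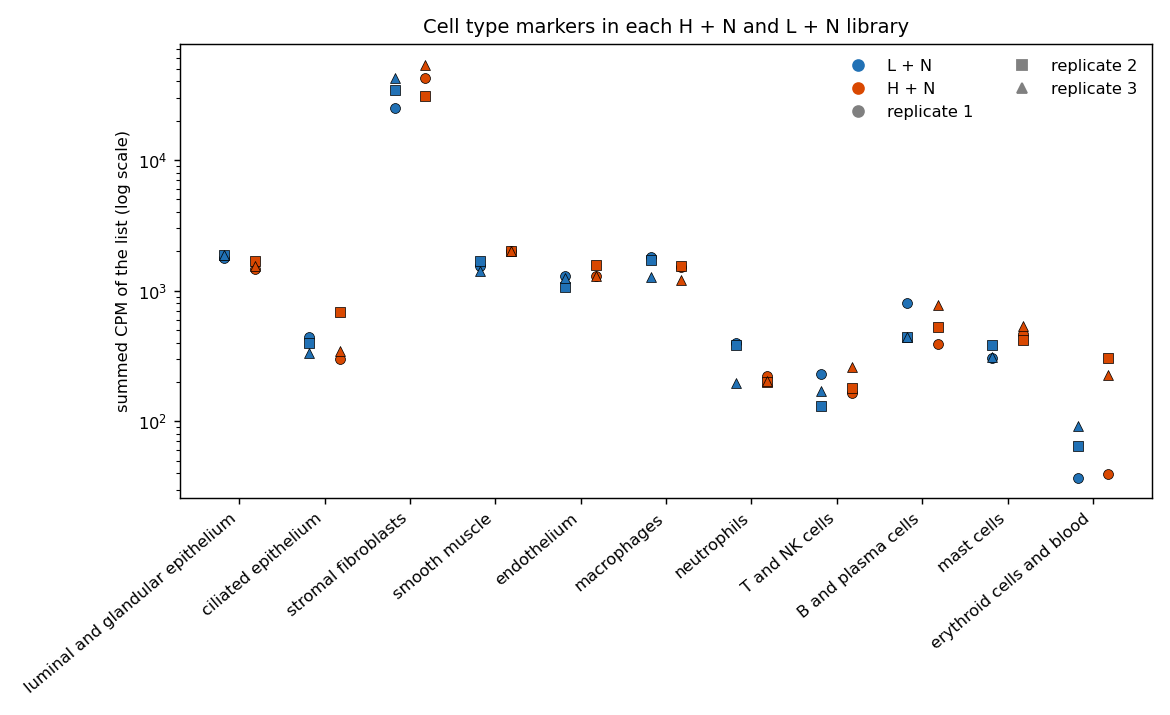
Summed CPM of cell type marker lists, on a log scale, in each L + N and H + N library, with a marker shape for the replicate number. Epithelium lies lower in H + N (1450 to 1680 CPM against 1760 to 1870), smooth muscle (2010 to 2020 against 1410 to 1680) and mast cells (419 to 538 against 303 to 385) lie higher, and the other lists overlap or, for endothelium, nearly meet.

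Gene lists written for endometrium are described by their counts and medians, beside 3.01% higher and 1.67% lower at an unadjusted p under 0.05 and a median of 0.0055 over all genes. The matrix came first. Of 25 collagens 20 had positive fold changes, with a median of 0.35, and 1 in each direction had an unadjusted p under 0.05. COL15A1 had 565, 395 and 1240 CPM against 460, 365 and 430 (0.81). COL11A1, a minor fibrillar chain, had 1.45, 1.68 and 0.429 CPM against 4.08, 2.27 and 2.35 (−1.28). The abundant COL1A1 stood at 10100, 6520 and 15800 CPM in H + N and at 4860, 6640 and 11000 CPM in L + N, which overlap (0.53, −0.31 to 1.36). Without H + N replicate 3 the collagen median was −0.05, so its sign rested on that library. Collagen hydroxylation and crosslinking had 17 of 20 positive (median 0.27, and −0.03 without that library). There COLGALT1, which glycosylates hydroxylysine, had 130, 116 and 206 CPM against 102, 100 and 112, and the hydroxylase PLOD2 stood at 0.49 with an interval from −0.34 to 1.32.

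Cholesterol synthesis and uptake had 19 of 24 positive fold changes and a median of 0.27, but −0.25 without H + N replicate 3. No member had an unadjusted p under 0.05. FDPS, an early enzyme of the pathway, had 77.8, 32.5 and 104 CPM in H + N and 33.4, 62.4 and 50.4 CPM in L + N, and FDFT1, which makes squalene, had 96.4, 99.0 and 115 CPM against 68.7, 91.9 and 66.8. Without NCG the list had a median of 0.999 with 23 of 24 positive.

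DNA replication and mitosis genes, 72 in all, had a median of −0.07 with 28 positive and none at an unadjusted p under 0.05, and the median was 0.03 without L + N replicate 3. MKI67, the proliferation marker, had 85.0, 99.7 and 126 CPM in H + N and 100, 91.2 and 138 in L + N. Its log2 fold change was −0.08 with an interval of −0.81 to 0.64. Without NCG the same list had a median of 0.66 with 67 positive.

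Steroid receptors and local steroid metabolism gave 18 of 25 positive and a median of 0.13, with FKBP4 and PGR at an unadjusted p under 0.05. ESR1 had 1060, 866 and 1280 CPM against 770, 855 and 1000 (0.29, −0.18 to 0.76). For prostaglandins and oxytocin the median was −0.07, and AKR1B1, a reductase that makes prostaglandin F, had 104, 138 and 149 CPM against 105, 70.0 and 94.6 (0.54, 0.02 to 1.05). Uterine secretory proteins had 5 of 25 members at an unadjusted p under 0.05 and lower in H + N (20%), namely PIGR, CLU, LTF, CTSL and IGFBP2, and 0 higher, with a median of −0.17. LTF, the iron-binding lactoferrin, rested on a single library, with 2.97, 3.53 and 9.93 CPM against 18.8, 228 and 4.77. Its log2 fold change was −3.94, and −1.14 without L + N replicate 2. CTSL, cathepsin L, overlapped between the groups, with 20.5, 22.4 and 22.7 CPM in H + N and 73.5, 34.7 and 21.6 CPM in L + N. Osteopontin, SPP1, had 120, 97.5 and 36.5 CPM against 245, 315 and 103, and uteroferrin, ACP5, 68.3, 109 and 110 CPM against 145, 101 and 143. Both pairs of groups overlapped.

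Genes of arginine, nitric oxide and polyamine metabolism, the route on which NCG acts, had a median of 0.13 with 18 of 28 positive. ARG1, the urea cycle arginase, had 0, 0.326 and 0.736 CPM in H + N and 5.58, 0.873 and 0.523 in L + N (−2.69, −5.29 to −0.10, and −0.99 without L + N replicate 1). ASL, which releases arginine from argininosuccinate, had 9.16, 10.5 and 7.97 CPM against 12.5, 13.3 and 10.5 (−0.39, −0.77 to −0.01). SRM, the spermidine synthase, had 14.4, 13.5 and 41.0 CPM against 11.6, 12.8 and 13.7 (0.86, and 0.14 without H + N replicate 3). ODC1, which starts polyamine synthesis, differed by 0.19 (−0.21 to 0.59) and ARG2 by −0.18 (−0.59 to 0.23). CPS1 and NAGS, the target of NCG and the enzyme that makes its natural counterpart, had at most 5 and 3 counts in a library and were not tested.

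Antioxidant enzymes had a median of 0.05 with 19 of 32 positive. NQO1, a quinone reductase, had 32.9, 26.7 and 37.6 CPM against 27.4, 18.5 and 25.6 (0.44, 0.03 to 0.86). SOD1 stood at 0.18 (−0.08 to 0.43), SOD2 at −0.18 (−0.87 to 0.50) and CAT at 0.10 (−0.33 to 0.52), so that a doubling lay outside all 3 intervals. Heat shock and unfolded protein response genes had 29 of 33 positive fold changes with a median of 0.18 (0.08 without H + N replicate 3). HSPA5, the chaperone of the endoplasmic reticulum, had 532, 455 and 1150 CPM against 432, 522 and 425, and PDIA6, a disulfide isomerase, 124, 126 and 177 CPM against 107, 109 and 107.

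Among immune lists, complement had 5 of 28 positive, a median of −0.28, and 3 genes (10.7%) at an unadjusted p under 0.05, all lower. Besides CLU, C9 of the membrane attack complex had 5.80, 4.89 and 1.96 CPM against 7.57, 10.1 and 6.93 (−0.96, −1.78 to −0.13). Cytokines and chemokines had 11 of 38 positive (−0.21) and none at that p. CXCL8, the neutrophil chemokine, had 2.04, 2.28 and 6.5 CPM against 26.4, 65.0 and 3.34, with L + N replicate 3 among the H + N values. Interferon-stimulated genes had a median of 0.07.

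Of 49 growth factors and angiogenic signals 3 were higher and 1 lower at an unadjusted p under 0.05 (median −0.04). NTRK2, a neurotrophin receptor, had 111, 68.0 and 86.9 CPM against 49.2, 47.8 and 53.6 (0.82, 0.23 to 1.41), and VEGFA overlapped at 150, 71.8 and 216 CPM against 95.2, 81.7 and 123. Wnt, R-spondin and LGR signals had 1 higher (FZD1) and 3 lower of 42, with FZD3 next to RSPO1 at −0.50. LGR5, the R-spondin receptor, had 66.0, 8.96 and 66.9 CPM against 23.1, 11.5 and 29.4. Among ion channels SLC26A4, an exchanger of chloride and bicarbonate, had 22.1, 3.31 and 16.9 CPM against 1.84, 0.640 and 5.30 (2.45, 0.24 to 4.67), and SCNN1B, a subunit of the epithelial sodium channel, 5.14, 1.52 and 9.69 CPM against 1.41, 1.22 and 2.35. KCNJ1, a potassium channel, had 7.25, 1.90 and 0.736 CPM against 14.4, 17.3 and 7.06. The taurine transporter SLC6A6 led the amino acid transporters, with 45.7, 61.7 and 52.9 CPM against 86.6, 76.3 and 67.1 (−0.52, −0.85 to −0.19). DDIT4, an inhibitor of mTORC1, had 56.8, 60.1 and 57.6 CPM against 63.8, 74.1 and 63.5 (−0.21, −0.45 to 0.04).

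The remaining lists had medians near 0. They were matrix glycoproteins (0.08, 35 tested), matrix proteases (0.05, 33), TGF-beta, activin and BMP signals (−0.05, 33), mTORC1 regulators and PI3K-Akt kinases (−0.07, 32), ion and water transport (−0.06, 37), amino acid transporters (0.05, 23), sugar and monocarboxylate transporters (−0.07, 21), iron transport (−0.06, 21) and fatty acid metabolism (0.06, 37). Immediate early genes had 20 of 26 positive and a median of 0.15, with KLF4 at 34.5, 40.4 and 43.8 CPM against 14.4, 27.3 and 23.2.

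**Figure D4:**
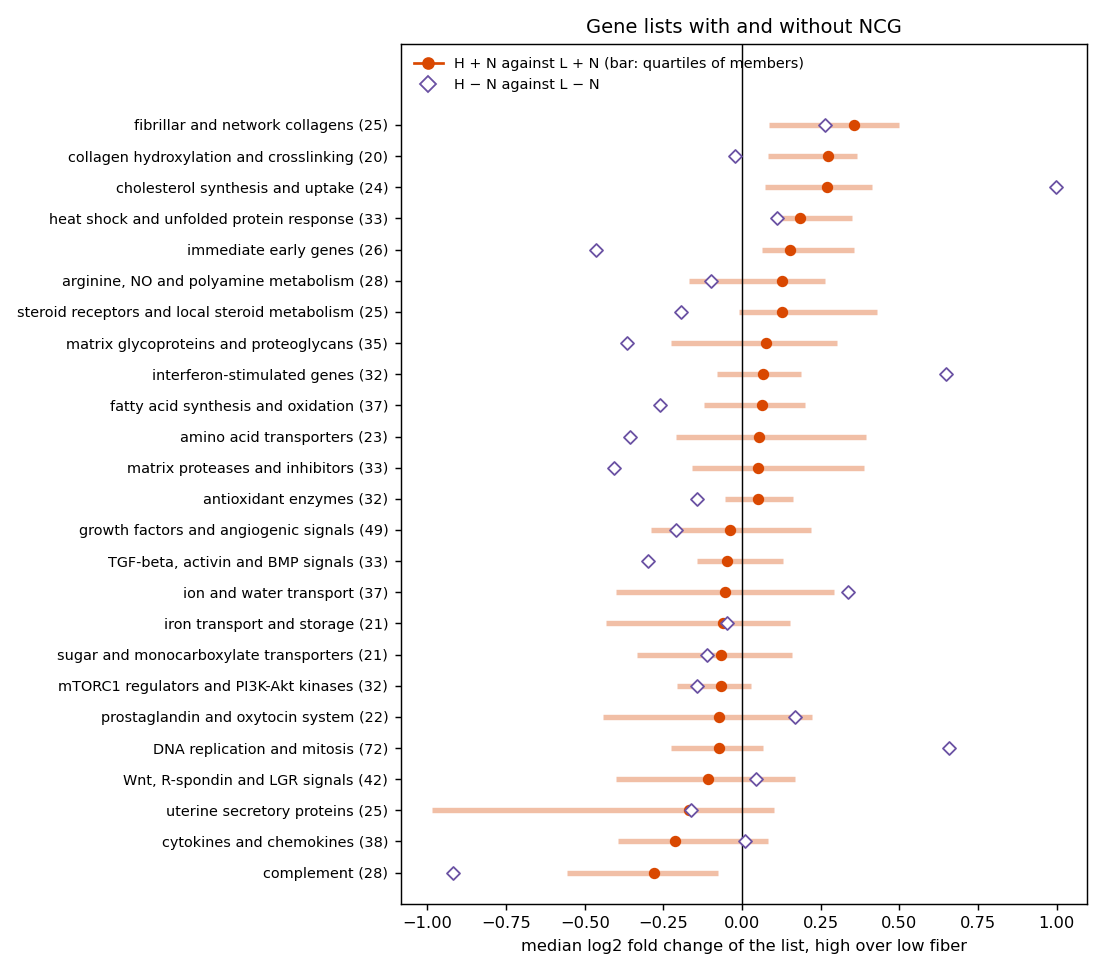
Median log2 fold change of high over low fiber for 25 gene lists, with the number of genes tested in brackets, in H + N against L + N (circles, with bars from the lower to the upper quartile of the members) and in H − N against L − N (diamonds). With NCG the medians lie between −0.28 (complement) and 0.35 (collagens), and without it between −0.92 (complement) and 0.999 (cholesterol synthesis and uptake).

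Across the annotation of the table, 311 KEGG pathways and 1003 biological processes (BP) had at least 15 tested genes, and 0 of them held a gene called by edgeR. The median share of genes at an unadjusted p under 0.05 was 4.94% for pathways and 4.41% for BP, beside 4.68% over all genes. Pathway medians ran from −0.30 to 0.26 and BP medians from −0.29 to 0.28. No pathway or BP median exceeded 0.5 in size, while 5 pathways and 16 processes did so without NCG.

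Pathways of RNA, protein and ATP production were among those with the larger shares. Protein export had 5 of 23 genes (21.7%), RNA polymerase 6 of 30, Spliceosome 24 of 123, Ribosome biogenesis in eukaryotes 12 of 71 and Oxidative phosphorylation 18 of 123, and none lower. Their medians were 0.26, 0.23, 0.16, 0.24 and 0.17. These 5 were not the 5 largest shares. Other pathways with larger shares than Oxidative phosphorylation had medians from −0.15 to 0.09. Phenylalanine metabolism had 2 higher and 1 lower of 16, and Tyrosine metabolism 3 and 1 of 22. Folate biosynthesis had 3 and 0 of 18, and Galactose metabolism 4 and 0 of 26. Pantothenate and CoA biosynthesis had 1 and 2 of 19, and lacto and neolacto glycosphingolipid biosynthesis 3 and 1 of 24. SNRPE, a core protein of the spliceosomal snRNPs, had 82.7, 62.3 and 75.7 CPM against 49.3, 58.5 and 58.6 (0.41, 0.14 to 0.67). NDUFB5, a subunit of respiratory complex I, had 40.7, 39.7 and 41.1 CPM against 29.2, 33.9 and 33.1 (0.34, 0.12 to 0.55). COX17, a copper chaperone of cytochrome c oxidase, had 45.7, 34.0 and 45.4 CPM against 29.2, 32.4 and 28.8 (0.47), and POLR2E, an RNA polymerase subunit, 81.7, 63.3 and 97.9 CPM against 54.7, 62.5 and 64.4 (0.42). These 4 genes were chosen after their values were seen. Arginine biosynthesis had 3 of 16 genes (18.8%), GOT2 higher and ARG1 and ASL lower, with a median of −0.07. None was left at that p when L + N replicate 1 was dropped, and 1 when H + N replicate 1, H + N replicate 3 or L + N replicate 2 was.

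The counts of the 5 pathways of RNA, protein and ATP production moved with single libraries. Without H + N replicate 3 they were 0 for Protein export, 3 for RNA polymerase, 8 for Spliceosome, 3 higher and 1 lower for Ribosome biogenesis in eukaryotes and 13 for Oxidative phosphorylation, with medians of 0.11, 0.10, 0.08, 0.07 and 0.09. Leaving out replicate 1 of L + N gave 0, 1, 7, 5 and 5, and leaving out replicate 2 of H + N gave 11, 13, 30, 23 and 32. For Ribosome 112 of 120 genes had positive fold changes and 12 an unadjusted p under 0.05 (median 0.22, and 0.14 to 0.23 with a library left out).

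In the BP annotation ATP synthesis coupled proton transport had the largest share, 5 of 16 genes (31.2%), with 16 of 16 positive and a median of 0.28 (0.11 without H + N replicate 3). The 5 genes became 0 when L + N replicate 1 was dropped, 1 when H + N replicate 1 or L + N replicate 3 was, and 9 when H + N replicate 2 was. Spliceosomal snRNP assembly followed with 6 of 20, and defense response to Gram-negative bacterium was the first process with mostly lower genes, 4 lower and 1 higher of 22 (median −0.29). With a library left out the former ran from 1 (L + N replicate 1) to 7 (H + N replicate 2). The 4 lower genes of the latter became 1 when H + N replicate 1 or L + N replicate 2 was dropped and 2 when H + N replicate 3 or L + N replicate 1 was. Among the 4 with all libraries were DEFB128 and BPI, the bactericidal permeability-increasing protein, at 2.90, 7.22 and 2.70 CPM in H + N and 9.17, 9.43 and 7 CPM in L + N. Cell cycle (median 0.04), p53 signaling pathway (−0.06), Oocyte meiosis (0.07), PI3K-Akt signaling pathway (−0.02) and GnRH secretion (−0.0008) had 4 of 118, 6 of 67, 5 of 103, 15 of 289 and 2 of 58 genes at an unadjusted p under 0.05. Those shares were 3.39%, 8.96%, 4.85%, 5.19% and 3.45%, beside 4.68% over all genes.

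The same DF contrast without NCG, H − N against L − N, shares no library with H + N and L + N. There edgeR called 137 genes higher (0.892%) and 309 lower (2.01%), though these numbers were 0 and 0 if replicate 1 of H − N was dropped. Dropping L − N replicate 3 left 0 and 6, and dropping L − N replicate 1 gave 441 and 679. In the NCG-fed sows the 137 genes had a median log2 fold change of 0.10. Of these 81 (59.1%) were positive, beside 56.0% of all genes with a positive value without NCG, and 8 had an unadjusted p under 0.05 in that direction (5.84%, beside 3.86%). The 309 genes had a median of −0.20 with NCG, 247 of them negative (79.9%, beside 55.1%), and 23 at that p (7.44%, beside 2.46%). The interval of H + N against L + N left out 1 for 81 of the 137 genes and left out −1 for 190 of the 309. Over all genes with a positive value without NCG it left out 1 for 6629 of 8209, and over those with a negative value −1 for 5552 of 7142. Since these genes were chosen by the contrast without NCG, its own medians of 1.66 and −1.49 tend to be overstated, and the gap to the values with NCG is given without a test. Without L − N replicate 2 only 60 genes were called higher, and their median with NCG was −0.08.

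**Figure D5:**
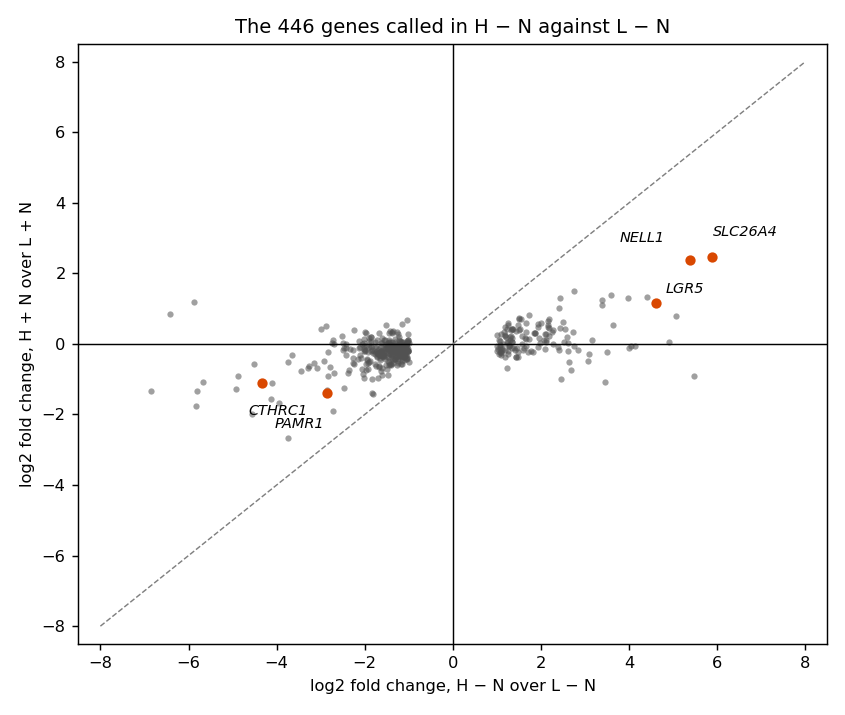
Log2 fold change of H + N over L + N (vertical) against that of H − N over L − N (horizontal) for the 446 genes called in the latter, with a dashed line of equal values. The genes were chosen by their horizontal value, and the vertical values run from −2.67 to 2.45, with SLC26A4 (2.45) and NELL1 (2.38) uppermost.

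The difference between the 2 fiber contrasts was tested as the interaction of fiber and NCG. By edgeR 0 genes passed (percent called 0), with a smallest adjusted p of 0.182, and 1967 genes (12.8%) had an unadjusted p under 0.05. DESeq2 called 186 genes in the 12 libraries, and edgeR 346 without L − N replicate 1. LOC100520329, annotated as a membrane primary amine oxidase, had the smallest interaction p, 4.04e-05, with log2 fold changes of 0.56 with NCG and −1.15 without it. Among genes with a symbol, those named by the smallest interaction p in each direction were NBL1, MAFF and C1QTNF5, with fiber values that were higher with NCG than without it, and BPI, TSPAN8 and DNAAF4, with values that were lower. NBL1, a secreted BMP antagonist, had 80.9 to 124 CPM in H + N and 90.2 to 112 CPM in L + N (−0.07, −0.53 to 0.39), beside 73.2 to 85.5 CPM in H − N and 212 to 358 CPM in L − N. MAFF, a small Maf factor, had 8.52 to 13.0 CPM in H + N and 9.20 to 11.9 in L + N, beside 7.46 to 10.8 in H − N and 26.2 to 40.2 in L − N. C1QTNF5, a secreted C1q-like protein, gave 0.34 with NCG (−0.09 to 0.78) and had 54.3 to 72.2 CPM in L − N, above the 17.7 to 31.6 CPM of the other 9 libraries. TSPAN8, an epithelial tetraspanin, had 2.93 to 5.87 CPM in H + N and 3.30 to 5.01 in L + N, and 0.382 to 0.815 CPM in L − N. TSPAN8 overlaps LGR5 on the opposite strand. For all 6 of these genes with a symbol the L − N libraries lay apart from the other 9, at 0.806 to 1.08 CPM for BPI and 2.70 to 3.31 CPM for DNAAF4.

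Genes with large values in the contrast without NCG had smaller ones with it, and were partly chosen for the former. NELL1 had a log2 fold change of 5.39 without NCG and 2.38 with it, and its libraries ran from 1.31 to 6.70 CPM in L + N and from 0.564 to 1.61 CPM in L − N. CTHRC1 had −4.34 and −1.12, PAMR1 −2.85 and −1.40, LGR5 4.62 and 1.15, and SLC26A4 5.89 and 2.45. The interaction p before adjustment was 0.0108 for NELL1, 0.00011 for CTHRC1, 0.0218 for PAMR1, 0.00361 for LGR5 and 0.0563 for SLC26A4, and none passed the adjustment. EDN1 was similar in both pairs (−0.89 and −0.72), with an interaction of 0.17 and an interval from −0.32 to 0.65. WRB (interaction 0.09), FZD1 (0.03), MYO3B (0.06) and FKBP4 (0.06) were near 0 as well. The intervals of the interaction ran from −1.75 to 1.87 for MYO3B and from −1.32 to 1.43 for FKBP4, too wide to leave out a doubling.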

How the data were processed

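Poly(A) RNA of sow endometrium was sequenced, and the authors deposited 1 table with read counts and FPKM values per gene and library, with gene annotation. The submitters' processing notes name fastp 0.22.0, HISAT2 2.1.0, HTSeq 0.9.1 and the genome Sscrofa11.1. Whether the counting used the strand, and which reads were dropped, is not given in the sources used here. The counts deposited by the authors are raw and were used for all tests. FPKM values, scaled by the authors to gene length and depth, were used for the check of endometrial genes only. All 20674 gene IDs were found in a RefSeq gene table, which was used for chromosomes and synonyms. Symbols, positions and overlaps came from the authors' annotation.

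Counts of the 12 libraries were fitted with edgeR 4.0.16 in R 4.3.3 (quasi-likelihood test, 1 mean per group, TMM scaling, filterByExpr), which left 15351 genes with 8 residual degrees of freedom. The contrasts were H + N minus L + N, H − N minus L − N and their difference. A gene was called at a Benjamini-Hochberg adjusted p under 0.05 and an absolute log2 fold change above 1. All printed p-values of single genes come from this edgeR fit unless DESeq2 is named. Log2 CPM values used a prior count of 2, while fold changes came from the edgeR fit at its default prior count. A gene with at most 3 counts in each library of a group was given no fold. DESeq2 1.42.0, RLE scaling, no filter, a replicate block, the 6 libraries alone and leaving out each library were alternatives. Every pair of libraries within H + N and within L + N differed by more than sampling noise (chi-square per gene 22.8 to 80.5).

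Genes were named by rule. Up to 12 per direction were taken by p among those without overlap, a mean of 1 CPM or more in either group and an absolute log2 fold change above 1, since none was called. To these were added the 6 with the smallest p per direction, the leading members of each list, a fixed set and 3 per direction for the interaction. DESeq2 calls, members of marker lists and other genes outside the rule were chosen after their values were seen. The comparison and the gene lists were chosen with earlier results of these data known. 1 gene that the rule named is not reported here. Pathway and BP terms came from the table.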

Additional observations from a re-analysis of the deposited data

Results flagged for a closer look

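DNAAF4, a factor for the assembly of ciliary dynein arms, had fold changes of opposite sign in the 2 fiber contrasts, the one with NCG being small. With NCG all H + N libraries (5.93, 7.71 and 4.90 CPM) lay below all L + N libraries (8.01, 8.03 and 8.11 CPM), and without NCG all H − N libraries (6.68, 6.59 and 7.45 CPM) lay above all L − N libraries (3.31, 2.70 and 3.09 CPM). With NCG the log2 fold change was −0.38, and −0.24 without H + N replicate 3. Of all genes tested, 5.09% lay wholly lower in H + N in this way. The L − N libraries lay below all the others. The difference of the log2 fold changes was −1.56, with an interaction p of 0.000321 by edgeR's quasi-likelihood test, which did not pass the Benjamini-Hochberg adjustment.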

How the results depend on the processing

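The count of genes called between H + N and L + N was 0 under every edgeR setting, each library left out included. DESeq2 gave 2 in the 12 libraries, 1 higher and 1 lower, and 20 in the 6 libraries, 1 higher and 19 lower. Genes at an unadjusted p under 0.05, 719 with all libraries, ranged from 307 to 1479 when a library was left out. The interaction called 186 genes by DESeq2 and 0 to 346 by edgeR with a library left out. Log2 fold changes of 78 named genes were recomputed under 12 settings each, and 73 kept their sign throughout. The other 5 were near 0 and turned with a library left out. CAT ranged from −0.0246 to 0.2136, MAFF from −0.0646 to 0.2441, NBL1 from −0.2838 to 0.0326, MKI67 from −0.2481 to 0.086 and TSPAN8 from −0.4121 to 0.1332. The cause was not tested. The median of all genes moved from 0.0055 to 0.0011 with RLE scaling, where 431 genes were higher and 271 lower at an unadjusted p under 0.05. Libraries with the same replicate number did not deviate together (correlations of −0.1003, −0.0353 and 0.1341), so the numbers were not taken to pair them. With the replicate block 676 genes had an unadjusted p under 0.05 and 0 were called.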
